A study of Mus musculus with 2 samples.

Results

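In the scRNA-seq of GR1+ cells from 4T1 tumors, 182 of the 5187 retained cells were low in S100a8 and S100a9 and carried at least 2 of the transcripts Alox15, Prtn3 and Cxcl14. These chosen cells had 500 to 5000 detected genes, at most 10% mitochondrial unique molecular identifiers (UMIs, 1 per captured mRNA molecule), less than 1.5% of their UMIs from S100a8 and S100a9, and at least 1 UMI of 2 or more of the 3 genes. They were set against 1594 other macrophages, which met the same limits, had at most 1 of the 3 genes, and took at least 0.3% of their UMIs from C1qa, C1qb, C1qc, Apoe, Csf1r, Cd68 and Fn1. The 2 libraries came from 4T1 breast carcinoma grown in BALB/c mice, female per the methods and 6 to 8 weeks old per the labels. The 4T1P library was made from non-responding tumors of the parental line, and the 4T1M library from responding tumors of a mutagenized clone of that line, responsive meaning that the tumors respond to antibodies against PD1. Tumors were taken before any treatment, per the methods, GR1+ cells of both were taken by positive magnetic selection, and each library pooled 5 mice per the series' design text; the study's own text gives another number of mice and another age. The responsive model is 1 mutagenized line, called a clone although the methods speak of multiclonal cells after mutagenesis, and each condition has 1 library, so there was no replicate check: no p-value is given, and every interval is an exact 95% interval for counting error only. Where a count is 0, the level or share it is said to allow is that of 3 counts.

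Alox15 encodes a lipoxygenase that adds oxygen to arachidonic and linoleic acid, and it is known from resident macrophages of the body cavities, from eosinophils and from monocytes exposed to interleukin-4. Prtn3 encodes proteinase 3, a serine protease stored in the azurophil granules that neutrophil precursors make along with Mpo, Elane and Ctsg. Cxcl14 encodes a chemokine made by epithelial cells, fibroblasts and some macrophages, and Fn1, Spp1, Ccl24 and Il6, given as further markers of the same cells, encode fibronectin, osteopontin, the eosinophil attractant eotaxin-2 and interleukin-6. Mlxipl, the last of these markers, encodes ChREBP, a transcription factor that responds to sugar and drives genes of fatty acid synthesis. Alox15 lies on chromosome 11 at 70344152 to 70352031 on the minus strand (GRCm38), Prtn3 on chromosome 10 at 79874476 to 79883174 on the plus strand, and Cxcl14 on chromosome 13 at 56288643 to 56296551 on the minus strand.

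The 250 bases before the RefSeq start of Prtn3 and Cxcl14, genes of the rule, and of Il6 are shown so that the control region of each can be read beside its level. They come from RefSeq (GRCm38.p6) and are written 5′ to 3′ on the gene's own strand, at chr10:79879417-79879666 for Prtn3, chr13:56296552-56296801 for Cxcl14 and chr5:30012864-30013113 for Il6. The gene positions above are those of GENCODE vM21, whose Prtn3 begins farther upstream than the RefSeq start, so the Prtn3 window lies inside the GENCODE gene, while the Cxcl14 and Il6 windows adjoin theirs. Capitals mark exact matches to GAGGAAGT, a word of the kind bound by the myeloid factor PU.1 and other ETS factors, and, searched in Il6 alone, to TTGTGCAA and GGATTTTCC, words found in sites of the C/EBP and NF-kB kinds. Each word was searched on both strands, none of the matches overlaps another, and a match is a run of letters, not a measured binding site.
Prtn3: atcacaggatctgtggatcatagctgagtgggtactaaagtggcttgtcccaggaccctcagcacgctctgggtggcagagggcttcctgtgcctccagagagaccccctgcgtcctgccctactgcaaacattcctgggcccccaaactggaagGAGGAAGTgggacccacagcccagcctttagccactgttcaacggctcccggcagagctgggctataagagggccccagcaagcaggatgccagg
Cxcl14: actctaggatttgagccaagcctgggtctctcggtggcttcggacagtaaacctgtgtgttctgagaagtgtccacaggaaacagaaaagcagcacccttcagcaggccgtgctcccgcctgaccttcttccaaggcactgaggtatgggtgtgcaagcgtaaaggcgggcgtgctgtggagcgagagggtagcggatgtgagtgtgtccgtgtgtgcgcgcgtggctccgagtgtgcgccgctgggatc
Il6: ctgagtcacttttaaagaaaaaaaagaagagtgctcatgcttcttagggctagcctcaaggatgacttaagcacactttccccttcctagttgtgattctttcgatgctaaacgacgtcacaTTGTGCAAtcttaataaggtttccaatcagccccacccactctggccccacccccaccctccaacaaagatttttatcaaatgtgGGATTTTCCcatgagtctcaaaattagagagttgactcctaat
The Prtn3 match begins 95 bases before the start, and GAGGAAGT was found in 2.44% of all 32851 promoter windows of this length. The Il6 matches begin 128 and 43 bases before the start, and these words were found in 0.895% and 0.237% of the windows. The letters of GAGGAAGT were not in the Cxcl14 window.

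The chosen cells made up a larger share of 4T1P than of 4T1M. They were 117 of 1726 retained cells in 4T1P, or 6.78% (5.64 to 8.07), and 65 of 3461 in 4T1M, or 1.88% (1.45 to 2.39). Over the macrophage side alone, that is chosen cells plus other macrophages, the shares were 117 of 798, or 14.7% (12.3 to 17.3), in 4T1P and 65 of 978, or 6.65% (5.17 to 8.39), in 4T1M. The intervals of the 2 libraries do not overlap on either denominator, and since the limits of the rule decide the level of these shares, they were recomputed under other limits.

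**Figure D1:**
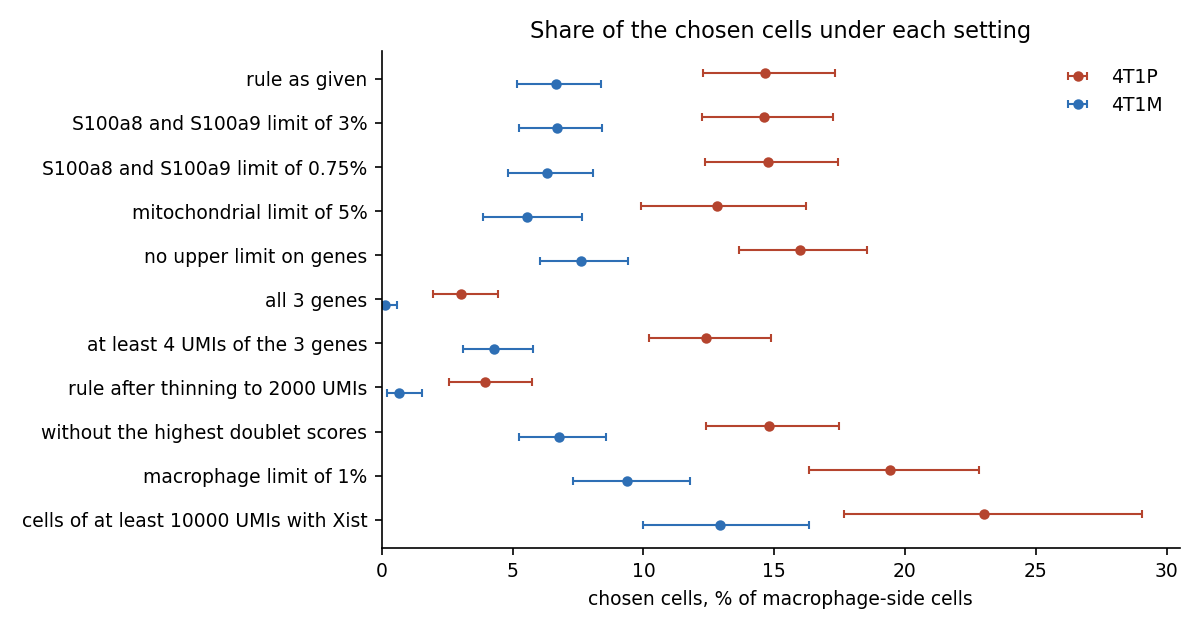
Share of the chosen cells among macrophage-side cells (x axis, %) for 4T1P (red) and 4T1M (blue) under the rule as given and under each other setting (y axis), points with exact 95% binomial intervals for counting error. The 4T1P share lies above the 4T1M share in all 11 rows, from 3.01% against 0.102% when all 3 genes were required to 23.0% against 12.9% in cells of at least 10000 UMIs with Xist.

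The rule works by detection and so favors deeply sampled cells. The chosen cells had a median of 18160 UMIs in 4T1P and 16217 in 4T1M, while the other macrophages had 7633 and 8490. When each cell was first thinned to 2000 UMIs, 3.92% of the macrophage side of 4T1P and 0.652% of 4T1M still met the rule. Near the edge of the rule, 9 of the 117 chosen cells of 4T1P and 14 of the 65 of 4T1M held exactly 2 UMIs of the 3 genes, and 336 and 442 of the other macrophages held 1 of the 3 genes.

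One feature set the libraries apart before any comparison. Among macrophage-side cells of at least 10000 UMIs, 165 of 391 (42.2%, 37.3 to 47.3) in 4T1P had no UMI of Xist, the transcript of the inactive X chromosome in female cells, against 4 of 461 (0.868%, 0.237 to 2.21) in 4T1M. UMIs of the 4 Y-linked genes Ddx3y, Eif2s3y, Kdm5d and Uty numbered 3 and 5 over all barcodes of 4T1P and 4T1M. Among the cells of that depth with Xist, the chosen cells were 52 of 226 (23.0%, 17.7 to 29.1) in 4T1P and 59 of 457 (12.9%, 9.98 to 16.3) in 4T1M, so the higher share in 4T1P was present within these cells as well. Of the barcode sequences, 5 were shared by the 2 libraries, 1 of them in a chosen cell of 4T1P.

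Macrophage transcripts were present in the chosen cells, many of them at a somewhat lower level than in the other macrophages. Of 15 macrophage genes 10 were lower in both libraries and none was higher in both, where 29.2% of all 2813 genes tested were lower in both, and the list summed to 21449 against 23123 CPM in 4T1P and 19530 against 23226 CPM in 4T1M (CPM being the UMIs of a gene over all UMIs of the class, scaled to the same total in each class). The 7 macrophage genes that define the comparison, Fn1 among them, took a median of 1.87% of UMIs in the chosen cells of 4T1P and 1.71% in those of 4T1M, against 1.53% and 1.54% in the other macrophages and 0.0484% and 0.0454% in cells with more S100a8 and S100a9, called the neutrophil side here. Only 2 chosen cells, both of 4T1M, were under the limit of 0.3%. Apoe, the apolipoprotein of lipid-loaded macrophages, stood at 8690 and 7716 CPM in the chosen cells of 4T1P and 4T1M, against 8257 and 9126 in the other macrophages.

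Eosinophils and neutrophil precursors are other known sources of Alox15 and Prtn3, and their other transcripts were counted in the chosen cells. Of 11 eosinophil genes, 8 were at 0 in the chosen cells of 4T1P and 7 in those of 4T1M, among them Epx, Prg2 and Ccr3 in both. The list summed to 145 CPM in the chosen cells against 29.7 CPM in the other macrophages of 4T1P, and to 21.4 against 15.8 CPM in 4T1M. In 4T1P the sum was mostly Alox15 itself at 88.5 CPM and Rnase2a at 55.0 CPM against 26.1 CPM in the other macrophages, with 30.4% of the Rnase2a UMIs from 1 cell, and its part in the results was not tested. Of the 11 genes measured for neutrophil precursors and azurophil granules, Prtn3 gave 169 of 186 CPM in 4T1P and 121 of 146 CPM in 4T1M, with Mpo at 0 UMIs in both and 4 and 5 of the genes at 0. Lists for mast cells and basophils, B cells, dendritic cells and endothelial cells summed to between 1.44 and 31.6 CPM in the chosen cells. The T and NK cell list summed to 72.3 and 83.7 CPM, nearly all of it Il7r, the tumor and epithelial list to 33.97 and 85.6 CPM, led by Cdh1, and the fibroblast list to 382 and 231 CPM, nearly all of it Cxcl14. The neutrophil list summed to 933 CPM in the chosen cells of 4T1P against 921 CPM in the other macrophages, and to 2491 against 1441 CPM in 4T1M, led by S100a9. Hemoglobin came from 1 cell in each library, which held 3703 of 3715 hemoglobin UMIs of the chosen cells in 4T1P and 603 of 605 in 4T1M.

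Few chosen cells carried all 3 genes, and Alox15 was nearly limited to those of 4T1P. In 4T1P, 37 of 117 chosen cells had Alox15, with 185 UMIs and at most 22 in a cell, whereas in 4T1M 1 of 65 had it, with 1 UMI. The pairs behind the choice in 4T1P were Prtn3 with Cxcl14 in 80 cells, Alox15 with Cxcl14 in 11, Alox15 with Prtn3 in 2, and all 3 genes in 24. In 4T1M they were Prtn3 with Cxcl14 in 64 cells and all 3 genes in 1. All 65 chosen cells of 4T1M thus carried Prtn3 and Cxcl14, which the rule requires of any chosen cell without Alox15. Their median Prtn3 count was 1 UMI per cell.

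**Figure D2:**
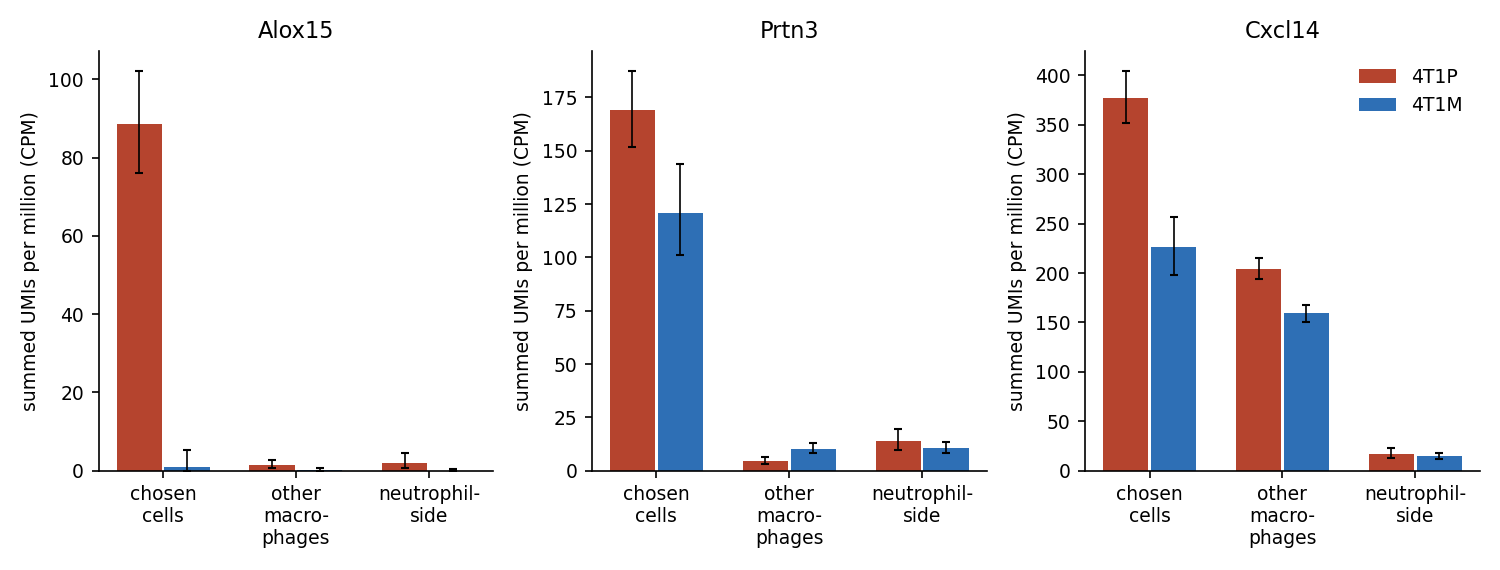
Levels of Alox15, Prtn3 and Cxcl14 (y axes, CPM, each panel on its own linear scale from 0) in chosen cells, other macrophages and neutrophil-side cells of 4T1P (red) and 4T1M (blue), bars with exact 95% Poisson intervals for counting error. Alox15 stands at 88.5 CPM in the chosen cells of 4T1P and at 0.930 CPM in those of 4T1M, and Cxcl14 is also present in the other macrophages.

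Each of the 3 genes behaved differently, and as the rule used them these values are a description. Alox15 was at 88.5 CPM (76.2 to 102) in the chosen cells of 4T1P and at 1.498 CPM (0.718 to 2.75) in the other macrophages. Prtn3 was at 169 CPM in the chosen cells of 4T1P against 4.64 in the other macrophages, and at 121 CPM against 10.4 in 4T1M. Cxcl14 was a general transcript of the macrophage side, at 378 against 204 CPM in 4T1P and 226 against 159 CPM in 4T1M, and it had a UMI in 46.0% and 44.4% of the other macrophages.

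Because Alox15 was nearly missing from 4T1M, it was counted over all macrophage-side cells, whether chosen or not. There were 195 Alox15 UMIs in 41 of 798 cells of 4T1P (22.2 CPM, 19.2 to 25.6) and 2 UMIs in 2 of 978 cells of 4T1M (0.214 CPM, 0.0259 to 0.771). The log2 ratio of 4T1M over 4T1P was -6.38, with an interval of -9.76 to -4.83, and it depended on the upper limit of 5000 genes: without that limit it was -3.34. In the barcodes with more than 5000 genes Alox15 stood at 23.5 CPM (19.6 to 27.9) in 4T1P and 12.3 CPM (7.87 to 18.3) in 4T1M. Prtn3 and Cxcl14 differed far less over the same cells, by -0.92 (-1.17 to -0.68) and -0.56 (-0.65 to -0.46). In macrophage-side cells of at least 10000 UMIs with Xist, Alox15 stood at 10.0 CPM (7.27 to 13.5) in 4T1P and at 0 UMIs in 4T1M, which allows up to 0.406 CPM.

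At a common depth the background of free RNA could be set beside these levels. After thinning to 2000 UMIs, Prtn3 was detected in 37 of 633 macrophage-side cells of 4T1P (5.85%, 4.15 to 7.97) and 22 of 762 of 4T1M (2.89%, 1.82 to 4.34), against 1.91% (0.919 to 3.48) and 1.36% (0.821 to 2.12) of neutrophil-side cells, whose precursors are a known source of the gene. Those cells had median depths before thinning of 13382 and 11797.5 UMIs on the macrophage side and 3347.5 and 3330.5 on the neutrophil side, and 165 and 216 shallower macrophage-side cells were left out. None of the 72 and 94 T cell-side cells, with median depths of 5933.5 and 5562.5 UMIs, had any of the 3 genes, which allows shares of up to 4.17% and 3.19%. Alox15 was in 13 of 633 cells of 4T1P (2.05%) and in 0 of 762 of 4T1M, which allows up to 0.394%, and Cxcl14 in 31.3% and 19.7%. Without thinning, Prtn3 was detected in 15.7% and 10.3% of macrophage-side cells and in 2.73% and 3.34% of neutrophil-side cells.

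In 4T1P, detection of 1 of the genes went with a higher share of cells with another, on few cells. In thinned 4T1P cells Cxcl14 was found in 18 of 37 cells with Prtn3 (48.6%, 31.9 to 65.6) and in 30.2% (26.5 to 34.1) of those without, and in 9 of 13 cells with Alox15 (69.2%, 38.6 to 90.9) against 30.5% (26.9 to 34.3). Prtn3 was in 2 of the 13 cells with Alox15 (15.4%, 1.92 to 45.4) and in 5.65% (3.96 to 7.76) of the others. With thinning to 1000 UMIs, Cxcl14 was in 10 of 20 cells with Prtn3 (50%, 27.2 to 72.8) and 18.75% (16.0 to 21.7) of those without, and Prtn3 in 4 of 13 cells with Alox15 (30.8%, 9.09 to 61.4) and 2.11% (1.21 to 3.40) of those without. In 4T1M Cxcl14 was found, at 2000 UMIs, in 5 of 22 cells with Prtn3 (22.7%, 7.82 to 45.4) and in 19.6% (16.8 to 22.6), and at this depth no difference could be seen. To take the levels from molecules the rule did not use, each UMI was assigned at random to 1 of 2 parts, the rule was applied to 1 part and the levels were read from the other. The 78 cells of 4T1P chosen this way exceeded the other macrophages by a log2 ratio of 4.88 (4.07 to 5.90) for Alox15. The ratios were 4.12 (3.63 to 4.66) for Prtn3 and 1.10 (0.91 to 1.29) for Cxcl14. The 34 cells of 4T1M did so by 2.50 (1.79 to 3.14) for Prtn3 and 0.42 (0.02 to 0.78) for Cxcl14. Alox15 had 0 UMIs in these 34 cells and 1 in the other macrophages. As the 2 parts share the same cells and genes, these ratios describe the rule's own choice and test nothing further.

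Outside the rule genes, few transcripts set the chosen cells apart by 2-fold in both libraries. Of 2813 genes with at least 50 CPM in either class in both libraries, Prtn3 alone was at least 2-fold higher in both (0.0355% of genes tested) and 6 were at least 2-fold lower in both (0.213%). These were Ccl8, Zmynd15, Ms4a7, Pltp, Selenop and Mmp12. Without regard to size or counting error, 33.1% of the genes were higher and 29.2% lower in both libraries, and the shares of the gene lists are read against these figures. In cells of matched depth 4 genes were higher and 4 lower.

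**Figure D3:**
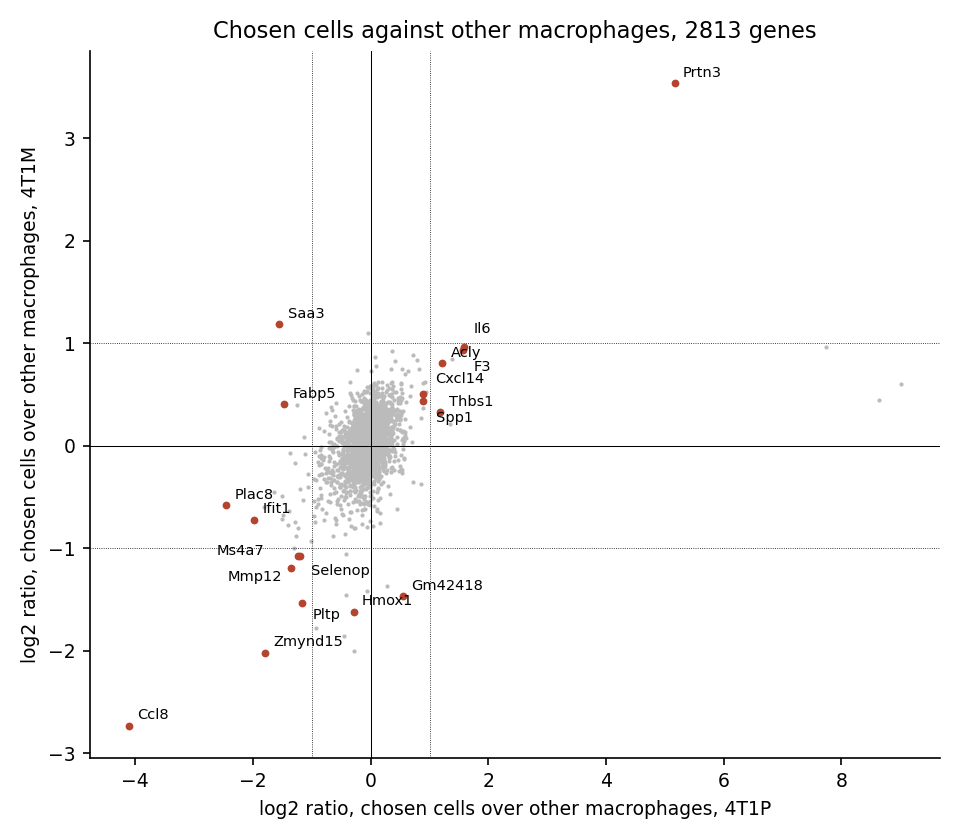
Log2 ratio of the chosen cells over the other macrophages in 4T1P (x axis) and 4T1M (y axis) for 2813 genes (grey points), with dotted lines at a 2-fold difference and named genes in red. Prtn3, which the rule used, stands alone at the upper right (5.16 and 3.54) and Ccl8 at the lower left (-4.11 and -2.73), and the 3 unnamed points farthest to the right are hemoglobin genes, whose UMIs in the chosen cells came nearly all from 1 cell of each library.

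After Prtn3, and apart from hemoglobin, Il6 was the gene of this count with the highest ratio common to both libraries. It stood at 228 CPM in the chosen cells against 76.2 in the other macrophages of 4T1P, and at 196 against 101 CPM in 4T1M. The log2 ratios were 1.58 (1.40 to 1.76) and 0.96 (0.73 to 1.18), and 41.0% and 38.5% of the chosen cells had an Il6 UMI, with 24.2% of the 4T1M UMIs from 1 cell. F3, which encodes tissue factor, the trigger of coagulation, followed with 1.57 and 0.93, and Mcemp1, a membrane protein of mast cells and myeloid cells, with 1.38 and 0.85. In thinned cells, where 25 cells of 4T1P and 5 of 4T1M met the rule, the 4T1M ratios of F3, Mcemp1, Slpi, Trf and Idh1 were below 0 and that of Irf7 was above 0. Of 9 genes measured for the interleukin-6 receptor and its signaling, 2 were higher in both (Il6 itself and Il6ra, at 0.11 and 0.31), 2 were lower and 5 were opposite.

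Genes of fatty acid synthesis were among those higher in both. Mlxipl, too low for the count above, was at 30.6 CPM in the chosen cells and 5.09 in the other macrophages of 4T1P (log2 ratio 2.58, 1.97 to 3.23), and at 13.95 against 3.74 CPM in 4T1M (1.92, 0.90 to 2.83). Acly, ATP citrate lyase, which supplies cytosolic acetyl-CoA, was at 350 against 151 CPM and 238 against 136 CPM (1.22 and 0.81). Scd2, a stearoyl-CoA desaturase, differed by 0.53 and 0.75, and Idh1, the cytosolic isocitrate dehydrogenase, by 0.52 and 0.61. Of the 4 genes of the Mlxipl and lipogenesis list that were high enough, 3 were higher in both libraries (Acly, Scd2 and Arrdc4) and 1, Txnip, was lower.

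Of the given markers, Fn1, which also served to define the other macrophages, was at 5416 against 2932 CPM in 4T1P and 3280 against 2151 CPM in 4T1M (0.89 and 0.61). Spp1 differed by 0.90 and 0.43. Ccl24 did not differ beyond counting error in 4T1P (0.09, -0.01 to 0.19) and was higher in 4T1M (0.78, 0.60 to 0.95), at a level of 555 CPM in the chosen cells of 4T1P and 313 in those of 4T1M. Trf, the iron carrier transferrin, differed by 0.92 and 0.62. Slpi, an inhibitor of neutrophil proteases, differed by 0.78 and 0.84, with 49.0% of its UMIs in 4T1M from 1 cell.

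Of 10 genes high enough in the list for lipoxygenases, leukotrienes and prostaglandins, 6 were higher and 2 lower in both libraries. Alox5ap, the protein that presents arachidonic acid to 5-lipoxygenase, differed by 0.18 and 0.21, and Ptgs1, cyclooxygenase 1, by 0.52 and 0.32. Pla2g7, an enzyme that breaks down platelet-activating factor, was lower by -0.29 and -0.55. In the hypoxia and glycolysis list 8 of 18 genes were higher in both and none was lower in both, with medians of 0.20 and 0.06 against -0.03 and 0.06 over all genes.

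Among the lower genes, Ccl8, a chemokine for monocytes and T cells, was at 23.0 CPM in the chosen cells of 4T1P against 399 in the other macrophages, and at 40.0 against 268 CPM in 4T1M. Its log2 ratios of -4.11 (-4.56 to -3.71) and -2.73 (-3.22 to -2.31) were the lowest of the genes lower in both, and 48.8% of the UMIs of the chosen 4T1M cells came from 1 cell. Mmp12, the macrophage elastase, was lower by -1.23 and -1.08, Selenop, the selenium carrier, by -1.20 and -1.08, Ms4a7 by -1.35 and -1.19, and Pltp, the phospholipid transfer protein, by -1.17 and -1.53. Mmp13, a collagenase, had ratios of -1.48 and -0.68, and Itgax, the CD11c integrin, of -1.40 and -0.77; after the rule was applied to thinned cells, Itgax was higher instead in both libraries (0.39 and 0.85).

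Interferon-stimulated genes were lower in the chosen cells of both libraries. Of 10 genes of the classical interferon response that were high enough, all 10 were lower in both, with medians of -0.90 in 4T1P and -0.52 in 4T1M against -0.03 and 0.06 over all genes. Ifit1, which binds viral RNA, was at 14.8 against 59.2 CPM in 4T1P and 53.0 against 88.1 CPM in 4T1M, and Irf7, the factor that amplifies type I interferon, at 29.7 against 72.0 and 106 against 196 CPM. Of 13 inflammatory and interferon-gamma genes 11 were lower in both and 1, Il1b, was higher (0.03 and 0.17). Of 6 MHC class II genes 4 were lower in both, among them H2-Aa with -0.72 and -0.22 and Cd74, the invariant chain, with -0.46 and -0.13.

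Among the lower macrophage genes, Adgre1, which encodes F4/80, was lower by -0.85 and -0.51, Maf by -0.70 and -0.55, and Lgmn, a lysosomal protease, by -0.46 and -0.53, whereas C1qa, C1qc and Csf1r were lower by at most -0.33. Of 14 hematopoietic transcription factors 8 were lower in both, including Spi1, which encodes PU.1, with -0.34 and -0.29, and Klf2 with -0.79 and -0.73. Of 7 monocyte genes 4 were lower in both and 2, Fn1 and Ccr2, were higher, Ccr2 by 0.13 and 0.56. Both of the genes of the 3 measured for proliferation that were higher, Mki67 and Stmn1, differed by at most 0.57.

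The other gene lists held both higher and lower genes. Of 10 CC chemokines 6 were lower and 2 higher in both libraries, and of 8 CXC chemokines 2 were lower and 3, Cxcl14 included, were higher. Of 14 genes of extracellular matrix and its remodelling 9 were lower and 3, Fn1, Thbs1 and Ecm1, were higher. Of 14 interleukins and growth factors 7 were lower and 5 higher, of 10 genes of alternative activation by interleukin-4 4 were lower and 3 higher, and of 13 genes of lipid handling 5 were lower and 2 higher. Of 9 receptors for Fn1 and Spp1 4 were higher and 2 lower, and of 9 genes of the uptake of dying cells 2 were higher and 4 lower. Gata6, the factor that defines the large macrophages of the peritoneum, a known site of Alox15, had 0 UMIs in the chosen cells of both libraries, and of the 3 genes of that list that were high enough 1, Fn1, was higher in both. Of 4 resident-like genes that were high enough 1 was higher and 1 lower in both, and Lyve1, a receptor of macrophages along vessels, was at 11.005 against 92.3 CPM in 4T1P and 0.930 against 7.36 CPM in 4T1M.

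Between libraries, the chosen cells of 4T1M had more interferon and MHC class II transcripts than those of 4T1P. Of 3137 genes with at least 50 CPM in the chosen cells of either library, 79 were at least 2-fold higher in 4T1M (2.52%) and 41 at least 2-fold lower (1.31%), and 58.4% were higher and 41.6% lower at any size. All 11 genes of the classical interferon list were higher in 4T1M, 9 of them at least 2-fold, with a median log2 ratio of 1.38 in the chosen cells against 0.97 in the other macrophages. Rsad2, the antiviral protein viperin, was at 673 CPM in 4T1M and 160 CPM in 4T1P (2.07, 1.88 to 2.26), and Ly6e at 479 and 123 CPM (1.96, 1.74 to 2.18). The ratios of the same genes in the other macrophages were 1.28 and 1.38. All 7 MHC class II genes were higher, with a median of 0.88 against 0.36 in the other macrophages.

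**Figure D4:**
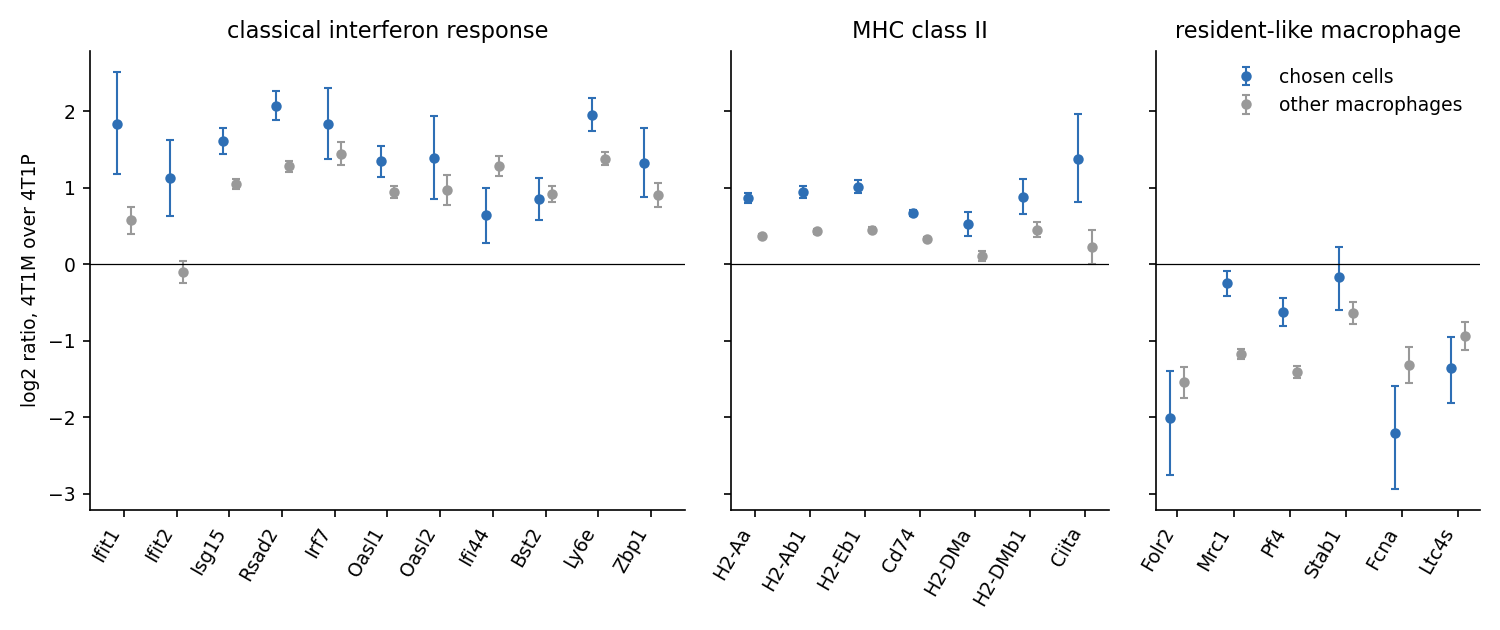
Log2 ratio of 4T1M over 4T1P (y axis) for the genes with at least 50 CPM in chosen cells in 3 gene lists (x axis), in chosen cells (blue) and other macrophages (grey), points with exact 95% counting intervals. All 11 interferon and all 7 MHC class II genes lie above 0 in the chosen cells, and all 6 resident-like genes lie below 0.

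Among genes with at least 100 CPM in a library and a UMI in at least 10% of its chosen cells, Plac8, a monocyte gene, had the highest ratio of 4T1M over 4T1P, from 22.5 CPM in the chosen cells of 4T1P to 227 CPM in those of 4T1M (3.32, 2.88 to 3.82), against 1.44 (1.33 to 1.56) in the other macrophages. Saa3, an acute-phase protein, went from 21.1 CPM, 54.5% of it from 1 cell, to 156 CPM (2.88), and Adamdec1, a protease of tissue macrophages, from 19.6 to 139 CPM (2.81). S100a9 was at 300.5 and 1177 CPM (1.97), below the limit of the rule in every cell, and 23.2% of its 4T1M UMIs came from 1 cell. Neutrophil genes thus moved with this comparison: 5 of 7 genes of the neutrophil list were at least 2-fold higher in 4T1M, and the part of neutrophil RNA in the other differences was not tested. Cfb, complement factor B, and Irf7 were higher by 1.87 and 1.83.

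Tissue-resident macrophage genes went the other way. All 6 measured genes of the resident-like list were lower in the chosen cells of 4T1M, 3 of them at least 2-fold, with a median of -0.99, and the other macrophages had a ratio below 0 for each of the 6 and a median of -1.24. Ltc4s, which makes leukotriene C4, was at 132 CPM in 4T1P and 51.2 in 4T1M (-1.36, -1.81 to -0.95). F13a1, coagulation factor XIII, had log2 ratios of -2.36 in the chosen cells and -1.64 in the other macrophages. Hmox1, heme oxygenase 1, was at 601 CPM in the chosen cells of 4T1P and 238 in those of 4T1M (-1.33), against -0.01 in the other macrophages. Thbs1, thrombospondin 1, was at 437 and 160 CPM (-1.45), and Tnfrsf9 at 108 and 21.4 CPM, with 65.2% of its 4T1M UMIs from 1 cell. Gm42418, which overlaps ribosomal RNA sequence, was at 23467 CPM in the chosen cells of 4T1P and 5227 in those of 4T1M (-2.17). In the other macrophages its ratio was -0.15. AY036118 and Hspa1a differed by -1.96 and -1.52, against -0.32 and -0.12 in the other macrophages. The part of these transcripts in the other differences was not tested.

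Clusters made without the 3 rule genes showed how far the chosen cells lie together by the rest of their transcriptome. At a resolution of 0.75, 14 clusters formed and the chosen cells fell in 6 of them. One cluster, led by Cx3cr1, C6, Siglec1 and Vcam1, held 51.6% of the chosen cells and 31.9% of the other macrophages, and another, led by Plpp3, Sdc1 and Thbs1, held 30.8% and 23.1%. At a resolution of 1.5, a cluster of 147 cells led by Mlxipl, Prtn3, Fcrls, Col14a1 and Fn1 held 57 of the chosen cells. That was 40.2% of the chosen cells and 8.08% of the other macrophages in 4T1P, and 15.4% and 3.61% in 4T1M. The leading genes of a cluster were ranked against all other retained cells, neutrophil side included, and need not mark its chosen cells. Fcrls was at 39.0 CPM in the chosen cells of this cluster and 133 CPM in its other cells in 4T1P. In 4T1M it was at 5.11 and 20.6 CPM.

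**Figure D5:**
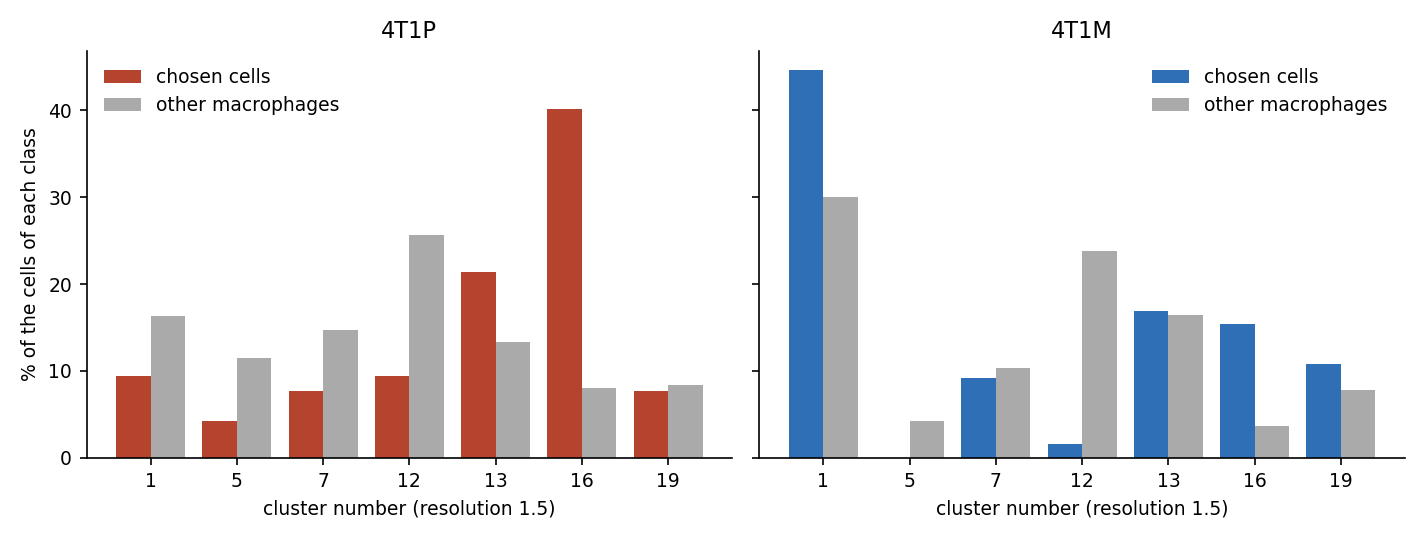
Percentage of the chosen cells (color) and of the other macrophages (grey) of 4T1P and 4T1M (y axis) in each cluster of resolution 1.5 with at least 20 macrophage-side cells (x axis, cluster number). Cluster 16, led by Mlxipl and Prtn3, holds 40.2% of the chosen cells of 4T1P and 15.4% of those of 4T1M, while cluster 1 holds 9.40% and 44.6%.

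The cells of cluster 16 were 102 of 798 macrophage-side cells in 4T1P (12.8%, 10.5 to 15.3) and 43 of 978 in 4T1M (4.40%, 3.20 to 5.88). Prtn3 was at 124 CPM in all cells of the cluster in 4T1P and 54.9 CPM in 4T1M, and Mlxipl at 32.4 and 17.9 CPM. Most of this Prtn3 lay in the chosen cells, which the rule picks by it: 217 of 226 UMIs in 4T1P and 34 of 40 in 4T1M. The other cells of the cluster had 10.1 and 11.3 CPM of Prtn3, and 17.9 and 13.1 CPM of Mlxipl. Alox15 had 104 UMIs in the 103 cells of cluster 16 in 4T1P, all in chosen cells. In its 44 cells of 4T1M Alox15 had 0 UMIs, which allows up to 4.12 CPM. The cluster with most of the chosen cells of 4T1M was cluster 1, led by C6, Kcnj10 and Vcam1, which held 44.6% of them and 9.40% of those of 4T1P, so comparisons between the libraries set cells of different clusters side by side.

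Neighborhoods gave the same picture without borders between clusters. Among the 20 nearest neighbors of a chosen cell, 30.6% in 4T1P and 20.4% in 4T1M were chosen cells, against 10.4% and 8.42% for the other macrophages. In cells of matched depth the shares were 32.1% against 15.5% in 4T1P and 20% against 13.4% in 4T1M. The excess over the other macrophages was smaller at matched depth than over all cells in both libraries, and smaller in 4T1M than in 4T1P.

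Within 4T1P, the 37 chosen cells with Alox15 were compared with the 80 without it, a split made after the values were seen and described without a test. Their median depths were 21444 and 17790.5 UMIs. Xist differed between them as well, at 201 CPM in the cells with Alox15 and 654 CPM in those without. It had a UMI in 24.3% and 60% of these cells, and its part in the differences below was not tested. Slpi was at 630 CPM in the cells with Alox15 and 189 CPM in those without (1.74, 1.52 to 1.97), Areg, a growth factor that binds the EGF receptor, at 354 and 147 CPM (1.27), and Acly at 533 and 258 CPM (1.05). Il6 was again higher, at 331 against 176 CPM (0.91), as was Trf at 2710 against 1471 CPM (0.88). Bhlhe41, a transcription factor of tissue-resident macrophages, stood at 106 and 44.6 CPM, with 28.4% of the UMIs of the cells with Alox15 from 1 cell. Mmp13 was at 32.8 CPM against 219 (-2.71), Mmp12 at 278 against 723 (-1.38), and Cxcl10 at 121 against 264 (-1.11). Single cells held 38.3%, 47.8% and 37.6% of the Areg, Mmp13 and Cxcl10 UMIs of the cells with Alox15. The cells with Alox15 lay in several clusters of resolution 1.5, 18 of them in cluster 16.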

How the data were processed

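GR1+ cells of 4T1P and 4T1M tumors were profiled in 1 droplet library each. Cell Ranger (4.0.0 per the labels) was run by the authors against mm10, and they deposited its UMI counts for each gene in each barcode as they were, with no scaling and no mitochondrial filter. The retained cells outnumber those the study's methods give for the same limits. The rule, the comparison and the gene lists were chosen with earlier results of these data known.

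Within each library the UMIs of a class were added up (2089963 and 6677247 in the chosen cells and other macrophages of 4T1P, 1074889 and 8290984 in 4T1M), turned into CPM (exact Poisson intervals) and set against each other as log2 ratios with 0.5 UMIs added and exact conditional intervals. With 1 library per condition no test was run. Genes named were the markers, the list genes, and, with at least 50 CPM and a UMI in at least 10% of cells of the higher class in both libraries, the 20 with the highest and lowest ratio shared by both libraries, plus the 10 highest and lowest between libraries at 100 CPM or more. Clustering used scanpy 1.11.5 (3000 genes, 25 components, 20 neighbors, Leiden) without the rule genes. Scrublet's automatic threshold called 1 and 0 doublets and was not used; no doublets were removed, and the highest scores (0.8% per 1000 barcodes) were left out as an alternative. Scaling by edgeR 4.0.16 (TMM) and DESeq2 1.42.0 served as alternatives only. Alox15 is missing from the promoter table used. One gene named by this rule is not reported here. The ratio step was checked on simulated counts of 10868 genes for the chosen cells and other macrophages of 4T1P. There 96.4% of the intervals held the true value. The counts were drawn with counting error alone, as the intervals assume, so this checks the calculation only. It leaves out UMIs that gather in single cells.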

Additional observations from a re-analysis of the deposited data

Results flagged for a closer look

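Barcodes with more than 5000 genes were in neither class under the rule as given, and the transcripts of the rule were frequent in them. Above, they entered only the Alox15 counts and the setting with no upper limit on genes. The rule's gene criteria were met by 27 of 133 such barcodes in 4T1P (20.3%, 13.8 to 28.1) and 12 of 48 in 4T1M (25%, 13.6 to 39.6). They held 130 Alox15 UMIs in 16 barcodes of 4T1P and 24 Alox15 UMIs in 4 barcodes of 4T1M, out of 29 Alox15 UMIs in all barcodes of 4T1M. Whether these barcodes are single cells was not tested.

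For 6 of the genes named as markers or for the size of their ratios, list genes such as Mrc1 (-0.68 and 0.24) and Pf4 (-0.32 and 0.47) not counted, the chosen cells lay on opposite sides of the other macrophages in the 2 libraries, with intervals that leave out 0 if UMIs of 1 cell are counted as independent, and the difference was not tested, since each condition has 1 library. Saa3 differed by -1.55 in 4T1P and 1.19 in 4T1M, Adamdec1 by -1.09 and 0.56, with 27.5% of its UMIs in the chosen cells of 4T1M from 1 cell, and G0s2, a regulator of fat breakdown common in neutrophils, by -0.73 and 0.37, with 66.1% of its UMIs in the chosen cells of 4T1P and 30.9% of those in 4T1M from 1 cell. Fabp5, a fatty acid carrier, differed by -1.47 and 0.41, with 66.8% of its UMIs in the chosen cells of 4T1M from 1 cell. Gm42418 and AY036118, which overlap ribosomal RNA sequence, differed by 0.55 and -1.46 and by 0.27 and -1.37.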

How the results depend on the processing

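No paired analysis was possible because each condition has 1 library and no replicate. The share in 4T1P exceeded that in 4T1M under each of the 10 alternatives. The shares of 14.7% and 6.65% became 3.01% and 0.102% with all 3 genes required, 3.92% and 0.652% after thinning to 2000 UMIs, 19.4% and 9.38% with a macrophage limit of 1%, and 23.0% and 12.9% in cells of at least 10000 UMIs with Xist, while at least 4 UMIs of the 3 genes gave 4.30% in 4T1M. The Alox15 log2 ratio between libraries kept its direction under each of 13 alternatives and was -3.34 with no upper limit on genes. The count of genes at least 2-fold higher in both libraries depended on the setting: the 1 gene became 7 with a mean over cells, 3 without the highest doublet scores, 175 in thinned cells, 9 at a minimum of 10 CPM, 163 with no minimum but 10 UMIs, 6 against macrophages with none of the 3 genes, 4 at matched depth, 11 with the macrophage limit of 1% and 3 in deep cells with Xist. The 6 lower genes became 40, 22, 155 and 14 in thinned cells, at 10 CPM, with no minimum and against macrophages with none of the 3 genes. Between libraries, the 79 higher and 41 lower genes became 1807 and 525 in thinned cells, where 25 and 5 cells met the rule, 340 and 210 at 10 CPM, and 1114 and 890 with no minimum. In thinned cells 14 of 116 ratios of named genes changed sign. Between libraries, those of Fabp5, Hspa1a and Spp1 turned to -1.14, 2.32 and 0.30. Against the other macrophages of 4T1M, those of F3, Mcemp1, Slpi, Trf, Ccnd2 and Idh1 turned to -0.50, -0.17, -0.34, -0.65, -0.70 and -0.30, and those of Irf7, Itgax and Errfi1 to 0.45, 0.85 and 0.26. In 4T1P, Itgax and Ada turned to 0.39 and 0.28. In deep cells with Xist 3 ratios changed sign, Egr3 in 4T1P to -0.03 and, between libraries, Il6 to 0.16 and Spp1 to 0.02. The largest cluster held 31.3% of the chosen cells at a resolution of 1.5. Thinned to 1000 UMIs, Prtn3 was in 2.59% and 1.28% and Cxcl14 in 19.6% and 13.2% of macrophage-side cells of 4T1P and 4T1M, as fewer UMIs must give. The causes of the other changes were not tested. The alternatives with Xist, without hemoglobin-rich cells and for Alox15 were chosen after seeing the data, as were the split of UMIs and the comparison of cells with and without Alox15.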

Other observations

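The Alox15 transcripts of 4T1P were unevenly spread between cells with and without Xist. Among chosen cells of at least 10000 UMIs in 4T1P, Alox15 stood at 34.1 CPM (24.0 to 47.0) in the 52 cells with Xist and at 145 CPM (121 to 172) in the 44 cells without, where 21 cells had it. Over all chosen cells of 4T1P, Xist was at 201 CPM in cells with Alox15 and 654 CPM in cells without. Of the 96 deep chosen cells of 4T1P, 39 held at least 10 Xist UMIs, and in 4T1M 44 of 60 did. The chosen cells were 26.7% (20.1 to 34.1) of the deep 4T1P macrophage-side cells without Xist and 23.0% of those with it, so the share of chosen cells overlapped between them within counting error. What these cells without Xist are was not tested.

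Ccl17, a chemokine that attracts T cells, had 0 UMIs in the chosen cells of 4T1P and stood at 70.7 CPM in those of 4T1M, where all of its UMIs came from 1 cell, against 0.2995 and 7.36 CPM in the other macrophages.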
